A study of Mus musculus with 7 samples.

Results

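The immediate-early factors described here are 10 genes of the AP-1, EGR and NR4A families (Fos, Fosb, Jun, Junb, Jund, Atf3, Egr1, Egr2, Egr3 and Nr4a1), chosen by symbol from the 55401 genes of the deposited count matrix. All 10 were present, and all 10 passed the filter on low counts that left 19199 genes to test. The RNA came from cells enriched for microglia with CD11b beads after enzymatic dissociation of the dorsal hippocampus of C57BL/6 mice aged 6 to 8 weeks. The mice are labelled male, which the RNA of library EYFP 3 did not bear out (below). In every mouse AAV-RAM-Cre was injected into the dorsal dentate gyrus, where the activity-dependent RAM promoter drives Cre in neurons engaged by an experience, the memory engram. The control group, EYFP, received AAV-Dio-EYFP with it (4 libraries). The other group, ATG7, received AAV-Dio-Atg7-Flag (3 libraries), which was meant to overexpress ATG7, an enzyme required for autophagosome formation, in those neurons. The RNA sequenced was that of the CD11b-enriched fraction, labelled microglia. The comparison asked whether the levels of these factors in that fraction differed with ATG7 overexpression in engram neurons. The labels do not say whether each library is 1 mouse or a pool, nor how long after any experience or at what hour tissue was taken, and p-values measure only the spread between these libraries.

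Immediate-early genes are transcribed within minutes of a stimulus without new protein synthesis. Kinase cascades activate factors already bound at their promoters: serum response factor with its ETS partners at the CArG box, and CREB at the cyclic AMP response element (CRE). FOS and JUN proteins pair through leucine zippers into AP-1, ATF3 joins JUN partners and often represses, EGR proteins are zinc-finger factors, and NR4A1 (Nur77) is an orphan nuclear receptor that restrains inflammatory transcription in macrophages. In brain the family is best known as a mark of active neurons. In microglia it responds to inflammatory and mechanical stimuli, and dissociation of brain tissue with enzymes is known to induce it. EGR1 and EGR2 also take part in macrophage differentiation.

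Promoter sequences are shown for 5 of the members because they hold letter matches to the CRE core and, in Egr2, to the CArG box. They also come from genes with different orders of EYFP libraries (Fos, Fosb and Junb against Egr2 and Nr4a1, below). RefSeq windows on the GRCm38.p6 build were matched by symbol for 8 of the 10 members. Only the 250 bases before the start are used. Capitals mark the CRE core TGACG, read on either strand as TGACG or CGTCA, and the CArG box. The full palindromic CRE TGACGTCA contains the core.

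Fos: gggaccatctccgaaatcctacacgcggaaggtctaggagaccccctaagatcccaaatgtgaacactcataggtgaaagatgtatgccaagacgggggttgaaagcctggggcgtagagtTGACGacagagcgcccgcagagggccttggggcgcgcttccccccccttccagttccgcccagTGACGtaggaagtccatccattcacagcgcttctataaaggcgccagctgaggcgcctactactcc
Fosb: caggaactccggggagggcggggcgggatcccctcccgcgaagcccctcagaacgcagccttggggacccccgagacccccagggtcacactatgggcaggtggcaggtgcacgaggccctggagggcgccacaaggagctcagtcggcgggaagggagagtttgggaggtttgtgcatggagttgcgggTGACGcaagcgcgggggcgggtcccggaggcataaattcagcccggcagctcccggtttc
Junb: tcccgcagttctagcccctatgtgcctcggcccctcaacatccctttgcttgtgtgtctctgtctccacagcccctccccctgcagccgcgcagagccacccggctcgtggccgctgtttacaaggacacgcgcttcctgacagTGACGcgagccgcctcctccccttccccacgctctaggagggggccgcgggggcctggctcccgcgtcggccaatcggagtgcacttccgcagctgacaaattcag
Egr2: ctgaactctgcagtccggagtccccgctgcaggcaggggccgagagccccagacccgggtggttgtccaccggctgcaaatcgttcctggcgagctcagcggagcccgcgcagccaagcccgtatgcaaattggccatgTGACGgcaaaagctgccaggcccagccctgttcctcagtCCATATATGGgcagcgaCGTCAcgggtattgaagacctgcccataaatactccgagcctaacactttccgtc
Nr4a1: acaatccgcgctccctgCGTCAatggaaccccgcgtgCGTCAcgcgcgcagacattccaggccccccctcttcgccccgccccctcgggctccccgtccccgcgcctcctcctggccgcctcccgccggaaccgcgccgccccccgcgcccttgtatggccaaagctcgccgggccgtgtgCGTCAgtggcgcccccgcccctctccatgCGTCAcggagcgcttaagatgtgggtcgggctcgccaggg

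The Fos window is chr12:85473640-85473889 on the plus strand, Fosb is chr7:19310046-19310295 on the minus strand, and Junb is chr8:84978749-84978998 on the minus strand. Nr4a1 is chr15:101266596-101266845 on the plus strand. The Egr2 window, chr10:67537619-67537868 on the plus strand, is 1 of 5 RefSeq starts of that gene and was shown because it holds both elements. Fos has the core 129 and 66 bases before the start, followed by a TATA box (TATAAA) 33 bases before it. Fosb has the core 60 bases and Junb 106 bases before the start. In Egr2 the CArG box, at 72 bases, lies between a core at 111 and a core at 55 bases. Nr4a1 holds 4 cores, at 233, 213, 69 and 40 bases before the start. Of the windows not printed, Atf3 has a core 7 bases before the start, and the Jun and Jund windows hold none of the motifs searched. The Jund window, chr8:70697489-70697738, ends well upstream of the GENCODE start of Jund, chr8:70698949. The bases just before that start were not searched. Over the 8 members with a window, 6 hold a CRE core in at least 1 window, and 3 of the 5 Egr2 windows hold it. The 5 printed windows were chosen for their elements, so that a core in each of them is no finding. The 9-base EGR site GCGGGGGCG, searched on both strands, occurs in Fosb at 50 bases and in Nr4a1 at 60 bases, overlapping none of the cores. Of 32851 RefSeq promoter windows of the same length, 17.8% hold the CRE core, 1.47% a CArG box, 7.59% the TATA box and 2.57% the EGR site. The full CRE, the AP-1 site TGACTCA and the second EGR site GCGTGGGCG were also searched on both strands (1.55%, 4.46% and 0.536% of windows) and matched no member window. These are matches of letters and not measured binding.

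**Figure D1:**
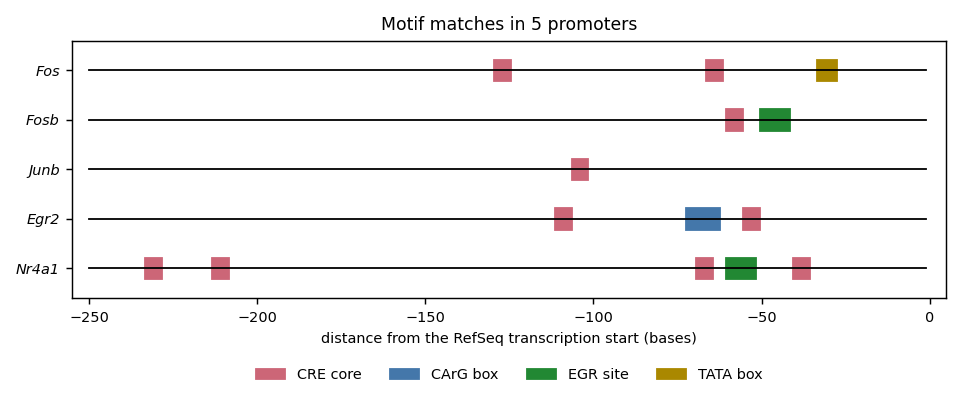
Positions of motif matches in the 250 bases before the RefSeq start of 5 members, in bases from the start, with each colour a motif. The windows were chosen for holding such elements, and of the 5 only that of Egr2 holds a CArG box. Bases farther upstream were not searched, so a motif absent here may still belong to a gene.

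The libraries held between 35934210 and 55217119 counts, and totals did not separate the groups (exact permutation p = 0.286, two-sided). Levels are given as CPM, counts scaled to library size with TMM factors. The microglial markers were abundant in every library: 12 of 12 were detected, and they summed to 22480 to 27480 CPM in EYFP and 22190 to 27420 in ATG7. RNA of other cells was abundant as well. Markers of choroid plexus, 8 in number, summed to between 46490 and 72410 CPM, above the sum of the microglial markers in every library, so the levels below are those of a mixture. Markers of border-associated macrophages summed to 541 to 653 CPM, of endothelial cells to 553 to 1166, of mural cells to 232 to 408, and of neutrophils and monocytes to 42.7 to 143, with 0 of these markers passing. Lymphocyte markers (8 genes) were near 0 but did not overlap, at 1.31 to 4.69 CPM in EYFP and 5.09 to 14.4 in ATG7, with 0 of the 6 tested passing. Atg7 itself was at 33.6 to 37.6 CPM in EYFP and 31.9 to 37.4 in ATG7, which does not check the label, since the transgene was aimed at neurons. EYFP 3, labelled male, stood apart in sex-linked genes, with Xist at 938 CPM against at most 0.573 in the other 6 libraries and the Y-linked Ddx3y at 27.6 CPM against at least 121. Its RNA thus goes against the label male, and it holds both Xist and Y-linked RNA. How it came to hold both was not tested. EYFP 3 was kept, and results without it are also given. In bulk RNA, fewer cells with a transcript and less transcript per cell cannot be told apart.

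None of the 10 factors passed the test between ATG7 and EYFP (quasi-likelihood test of edgeR, p adjusted over all genes tested by the Benjamini-Hochberg method, threshold 0.05). Their adjusted p ran from 0.427 for Egr2 to 0.993 for Nr4a1, and 0 of 10 had an unadjusted p under 0.05. Among all genes tested 0.755% passed (145 genes), 0.688% as higher and 0.0677% as lower in ATG7, and 12% had an unadjusted p under 0.05. The DESeq2 Wald test also called 0 of the 10, with 1 (Egr2) at an unadjusted p under 0.05. The groups overlapped for each of the 10 factors, whereas they did not overlap for 11.2% of all genes tested. What the factors did show was a wide spread within EYFP, a narrow spread in ATG7, and a profile over the libraries that many of the genes shared.

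**Figure D2:**
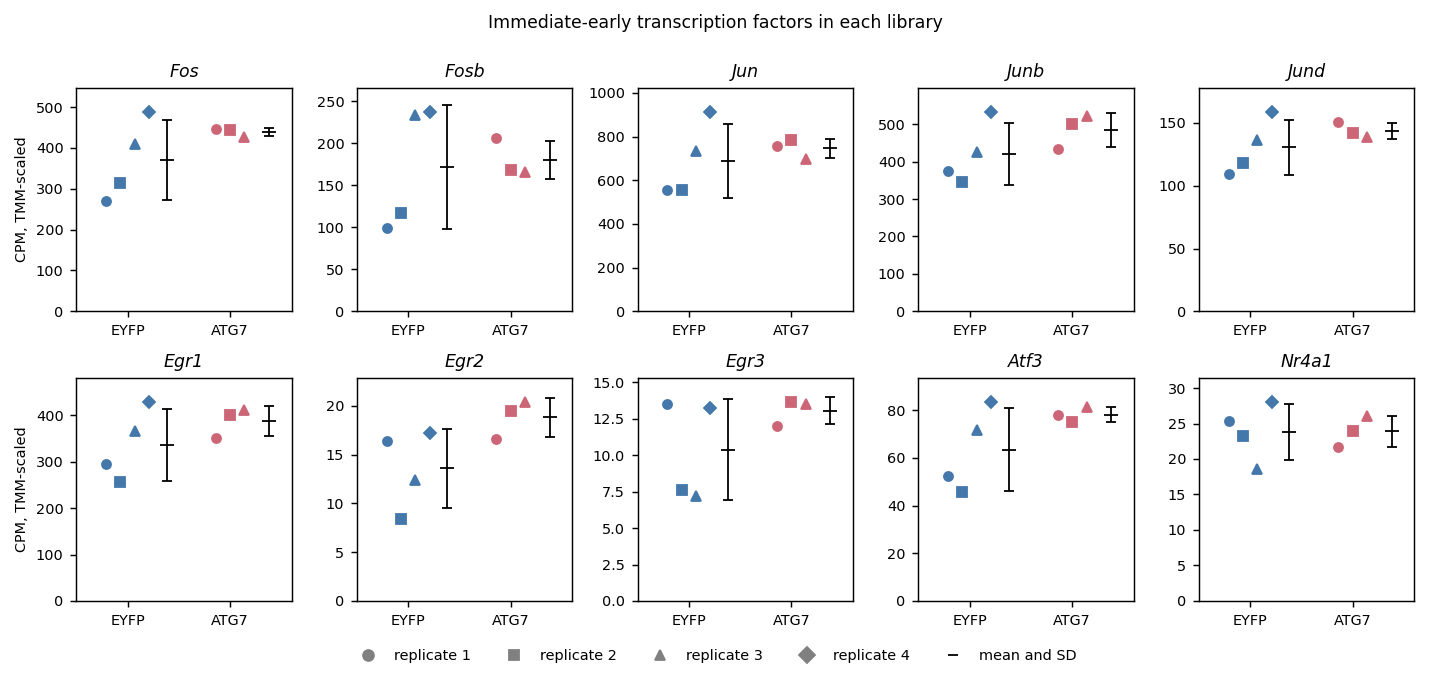
CPM of each factor in 4 EYFP (blue) and 3 ATG7 (red) libraries, with the marker shape giving the replicate number and the bar the mean and SD. For 8 of the 10 genes every ATG7 library lies inside the EYFP range, and EYFP 4 is the highest of the 7 libraries for 8 genes.

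Positions are those of GENCODE M21 on GRCm38. Fos, the inducible partner of JUN in AP-1 (chr12:85473890-85477273), was at 271, 314, 409 and 488 CPM in EYFP 1 to 4 and at 445, 444 and 427 CPM in ATG7 1 to 3. The ATG7 libraries were close together and lay between the third and the highest EYFP library. The EYFP mean was 370 ± 97.2 CPM (SD, n = 4) and the ATG7 mean 439 ± 9.94 CPM (SD, n = 3). This is a log2 fold change of 0.24, with a 95% interval from -0.14 to 0.63 (edgeR adjusted p = 0.647). Fosb, the FOS paralogue that builds up with repeated stimulation in neurons (chr7:19302696-19310051), was at 98.7, 117, 234 and 237 CPM in EYFP and at 207, 168 and 166 CPM in ATG7. Its EYFP libraries fell in a low and a high pair with all of ATG7 between them. With the widest interval of the 10 genes, from -0.75 to 0.89, its log2 fold change was 0.07 (edgeR adjusted p = 0.964).

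Jun, the main partner of FOS (chr4:95049034-95052222), was at 558, 557, 732 and 913 CPM in EYFP and at 759, 784 and 698 CPM in ATG7. Its log2 fold change of 0.12 had a 95% interval from -0.24 to 0.47 (edgeR adjusted p = 0.846). Junb, a JUN paralogue with weaker activating capacity (chr8:84974484-84978718), was at 375, 345, 426 and 533 CPM in EYFP and at 434, 501 and 522 CPM in ATG7, all inside the EYFP range. It gave a log2 fold change of 0.21, with an interval from -0.09 to 0.51 (edgeR adjusted p = 0.610). Jund, the most constitutively expressed of the JUN genes (chr8:70698949-70700616), was at 109, 118, 137 and 159 CPM in EYFP and at 151, 142 and 139 CPM in ATG7, with a log2 fold change of 0.14 and an interval from -0.12 to 0.39 (edgeR adjusted p = 0.710). It had the smallest CV (SD as a percentage of the mean) of the 5 FOS and JUN genes in EYFP, 16.8%, where Fosb had 43.2%. Exons of Prdx2, on the opposite strand, overlap those of Junb in GENCODE M21. Reads of the pair cannot be separated without the strand setting of the count, and Prdx2 was at 96.3 to 140 CPM with an edgeR adjusted p of 0.857. The antisense gene Junos lies over Jun at 0.168% of its level, and Gm11175 over Jund was at 0 in every library.

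Atf3, a stress-induced partner of JUN (chr1:191170296-191218039), followed the same profile, with 52.6, 45.6, 71.9 and 83.6 CPM in EYFP and 77.8, 75.2 and 81.3 CPM in ATG7. The ATG7 libraries again lay between the third and the highest EYFP library. The log2 fold change was 0.30, with an interval from -0.13 to 0.73 (edgeR adjusted p = 0.601).

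Egr1, the EGR factor that responds most widely to growth factor and calcium signals (chr18:34859823-34864984), was at 294, 256, 366 and 430 CPM in EYFP and at 352, 401 and 413 CPM in ATG7. Its log2 fold change of 0.21 had a 95% interval from -0.14 to 0.55 (edgeR adjusted p = 0.672). Egr2, which in myeloid cells takes part in macrophage differentiation (chr10:67535475-67542188), was at 16.4, 8.41, 12.3 and 17.2 CPM in EYFP and at 16.6, 19.4 and 20.4 CPM in ATG7. ATG7 2 and 3 were above every EYFP library, and ATG7 1 was below EYFP 4. The EYFP mean was 13.6 ± 4.06 CPM (SD, n = 4), the ATG7 mean 18.8 ± 1.98 CPM (SD, n = 3). The log2 fold change of 0.47 was the largest of the 10 and did not pass (interval -0.01 to 0.95, unadjusted p = 0.0530, adjusted p = 0.427, edgeR). Egr3 (chr14:70077203-70082614), a close paralogue of Egr2, was at 13.5, 7.60, 7.20 and 13.2 CPM in EYFP and at 11.98, 13.7 and 13.5 CPM in ATG7, a log2 fold change of 0.33 with an interval from -0.16 to 0.83 (edgeR adjusted p = 0.624). EYFP 1 and 4 were at the ATG7 level and EYFP 2 and 3 were well below it.

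Nr4a1, the orphan receptor (chr15:101254269-101274795), was at 25.3, 23.25, 18.6 and 28.1 CPM in EYFP and at 21.6, 24.0 and 26.0 CPM in ATG7. In EYFP the mean was 23.8 ± 3.98 CPM (SD, n = 4), and in ATG7 it was 23.9 ± 2.20 CPM (SD, n = 3). Of the 10 factors it was the one with the least difference, with a log2 fold change of 0.00 and an interval from -0.28 to 0.29 (edgeR adjusted p = 0.993).

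All 10 log2 fold changes were above 0 in the fit with TMM factors, although Nr4a1 lay below 0 with the DESeq2 size factors, with library size alone and with upper-quartile factors, and Fosb lay below 0 without EYFP 1, EYFP 2 or ATG7 1. The median of the 10 was 0.21, against -0.00365 over all genes tested, of which 49.2% were above 0. The directions are not 10 separate observations, since many of the factors varied together over the 7 libraries (Pearson's r of log2 CPM 0.983 for Fos with Jund and 0.977 for Junb with Egr1, as a description). Others did not, with r of 0.0299 for Nr4a1 with Fos and -0.254 for Nr4a1 with Fosb. Every interval included 0, and their upper ends ran from 0.29 for Nr4a1 to 0.95 for Egr2, or 1.22-fold to 1.93-fold. For the 9 factors other than Egr2 the upper end was at most 1.85-fold. The data thus bound the difference without showing that the groups were alike.

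**Figure D3:**
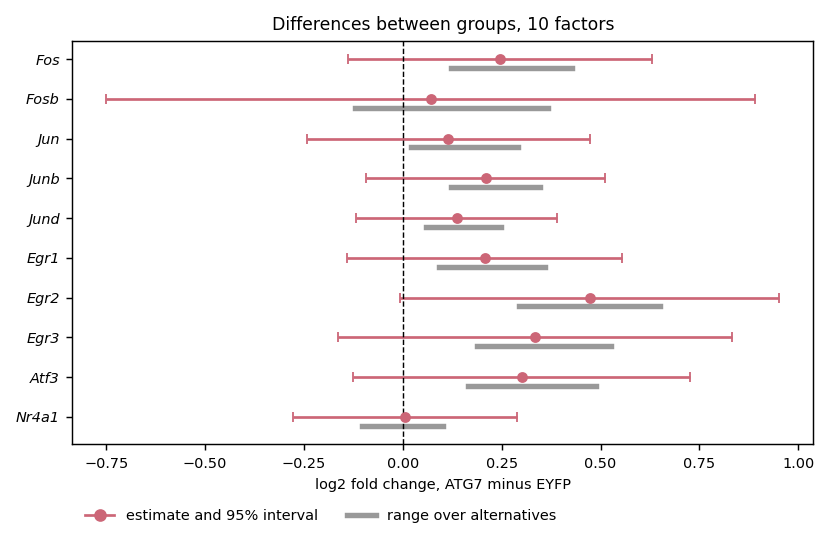
Log2 fold change of each factor, ATG7 minus EYFP (x axis), with its 95% interval in red and the range over 16 alternative analyses in grey. Every interval crosses 0, and Egr2 at 0.47 lies farthest to the right.

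Within EYFP the factors showed 2 orders of libraries, which were noticed after the values were seen. Fos, Fosb, Jun, Junb, Jund, Egr1 and Atf3 were higher in both EYFP 3 and EYFP 4 than in both EYFP 1 and EYFP 2. This order was found in 7 of the 10 factors and in 11.5% of all genes tested. Egr2, Egr3 and Nr4a1 were instead higher in EYFP 1 and 4 than in EYFP 2 and 3. This second order, in 3 of the 10 factors (30%), was found in 17.6% of all genes tested and is no finding about the 3. Over all libraries the 2 orders were not cleanly separate for Egr2. It correlated most with Egr3 (Pearson's r = 0.885), but more with Junb (0.785) than with Nr4a1 (0.443). Egr3 and Nr4a1 stood further apart from the first order. Their r with each other was 0.73, and with the 7 genes of the first order at most 0.586 for Egr3 and 0.397 for Nr4a1, both with Junb. EYFP 4 was high in each case. It was the highest of the 7 libraries for 8 factors, and the lowest library was EYFP 2 for 5 factors, EYFP 1 for 3 and EYFP 3 for 2. 

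The factors varied more in EYFP than in ATG7. The CV was larger in EYFP for 10 of 10 factors and for 59.8% of all genes tested, and no test of this difference was made. It was also larger for 12 of 13 feedback genes (median CV 16.6% in EYFP and 6.2% in ATG7), 5 of 5 tested immediate-early genes mainly of neurons (33.1% and 11.9%), 21 of 28 other immediate-early response genes and 15 of 20 downstream genes. Other companion lists did not share this. It was larger in EYFP for 1 of 4 EGR and NR4A relatives and NAB corepressors (11.3% and 13.1%) and 4 of 10 heat-shock genes (10.7% and 11.3%). The counts were 9 of 17 for kinases, 7 of 12 for promoter-bound factors and 8 of 12 for bZIP relatives, near the share of all genes. The median CV of the factors was 25.4% in EYFP and 7.69% in ATG7. Over all genes tested with a mean of at least 10 CPM it was 8.18% and 6.83%. The highest EYFP library exceeded the lowest by 2.40-fold for Fosb, 2.05-fold for Egr2, 1.88-fold for Egr3, 1.83-fold for Atf3 and 1.80-fold for Fos, down to 1.46-fold for Jund. For 8 of the 10 factors all 3 ATG7 libraries lay inside the EYFP range, which was so for 26.8% of all genes tested. Egr2, with ATG7 2 and 3 above the highest EYFP library, and Egr3, with ATG7 2 above it, were the exceptions.

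The summed markers of neurons, astrocytes and the oligodendrocyte lineage were higher in EYFP 1 and 2 than in EYFP 3 and 4, the reverse of the first order. The 12 neuron markers summed to 219, 105, 61.1 and 65.2 CPM in EYFP 1 to 4 and to 65.6 to 94.3 CPM in ATG7, with Gad2 at 0 in at least 1 library. The 10 markers of the oligodendrocyte lineage summed to 581, 557, 250 and 286 CPM in EYFP and to 278 to 410 CPM in ATG7. The 8 astrocyte markers summed to 808, 640, 468 and 427 CPM in EYFP and to 484 to 588 CPM in ATG7. EYFP 1 and 2, low in Fos, Fosb, Jun, Junb, Jund, Egr1 and Atf3, thus had the highest neuron, astrocyte and oligodendrocyte sums of all libraries. Camk2a alone made 110.6 CPM of the neuron sum in EYFP 1 and 41.29 CPM in EYFP 2. Some listed markers, Prox1, Pdgfra, Slc7a10 and Aldh1l1 among them, were not higher in both EYFP 1 and 2 than in both EYFP 3 and 4. Microglial markers summed to 25220, 22480, 27480 and 23440 CPM in EYFP 1 to 4. Sums of endothelial markers (829, 855, 764 and 553 CPM) and mural markers (370, 408, 324 and 232 CPM) were also higher in EYFP 1 and 2 than in EYFP 3 and 4. Choroid plexus markers, at 54890, 72410, 56520 and 65920 CPM in EYFP 1 to 4, did not have that order. Nor did those of border-associated macrophages, at 633.5, 632, 653 and 541 CPM. None of these markers passed the test between groups. Their part in the profile of the factors was not tested.

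**Figure D4:**
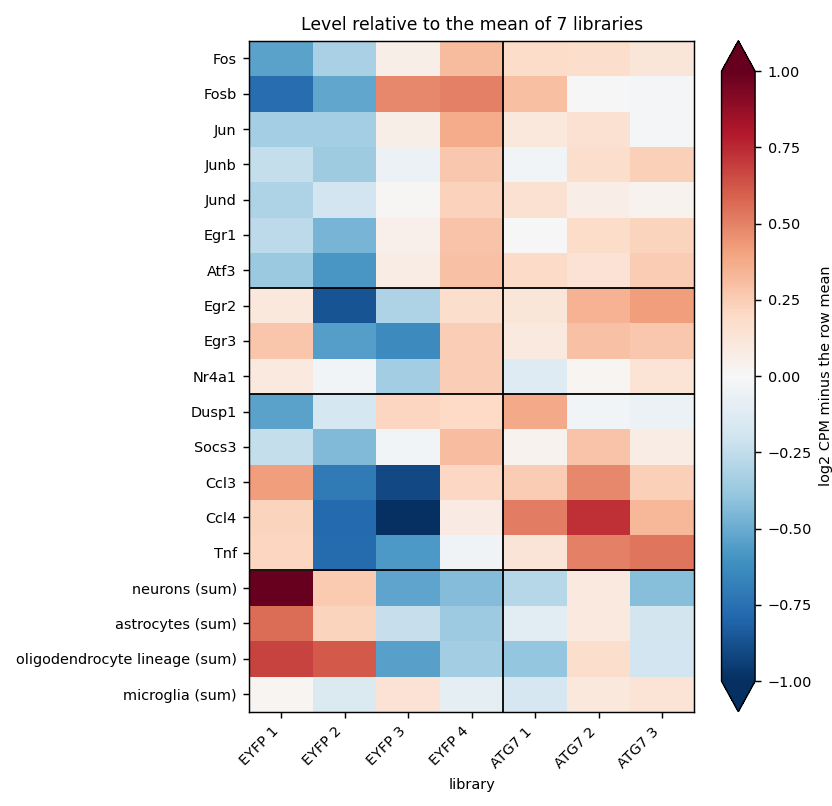
Log2 CPM minus the row mean over 7 libraries (colour, red above and blue below the mean) for the 10 factors, 5 companion genes and 4 summed marker lists. Fos to Atf3 are low in EYFP 1 and 2, Egr2, Egr3, Ccl3, Ccl4 and Tnf are low in EYFP 2 and 3, and neuron and oligodendrocyte sums are high in EYFP 1 and 2.

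Levels between genes were compared as CPM per kilobase of exon in GENCODE M21. Over the 7 libraries Jun (175 to 286), Junb (150 to 232) and Fos (115 to 207) were the most abundant, and their ranges overlapped. Jund (65.4 to 95.1) and Egr1 (57.1 to 95.9) came next and overlapped each other but not the first 3. Atf3 (21.2 to 38.8) and Fosb (15.8 to 38.0) followed. Nr4a1 (5.31 to 8.00), Egr2 (2.48 to 6.01) and Egr3 (1.63 to 3.11) were the lowest. In each library Fos was above Fosb, and Egr1 was above Egr2 and Egr3 on this scale. The order of the 4 tiers was the same in both groups.

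**Figure D5:**
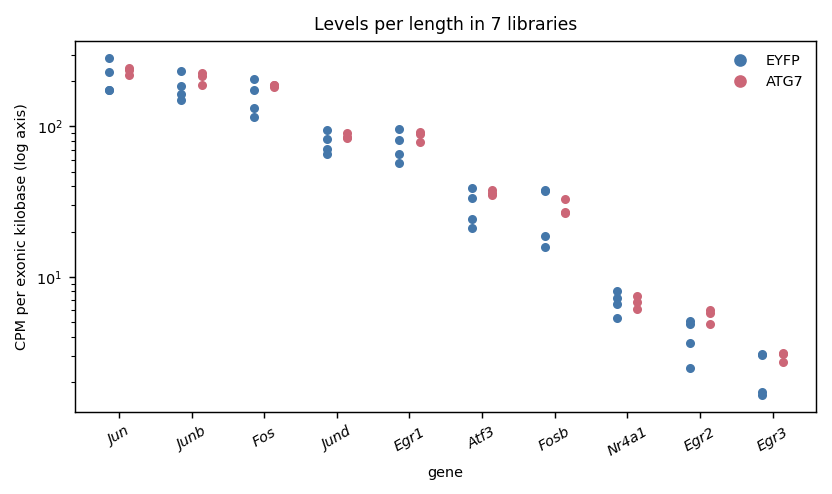
CPM per exonic kilobase (log axis) of each factor in 4 EYFP (blue) and 3 ATG7 (red) libraries, ordered by mean. Jun, Junb and Fos lie above 115 in every library, and Nr4a1, Egr2 and Egr3 at 8.00 or below.

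Immediate-early factors can also come from neurons, and genes of that class that are mainly neuronal were therefore examined. Of 8 such genes, 5 passed the filter and 0 passed the test (median log2 fold change -0.10). Arc, a synaptic immediate-early gene, was at 2.075, 1.00, 0.288 and 1.275 CPM in EYFP and at 0.899, 1.42 and 1.03 CPM in ATG7. Npas4, a factor induced by neuronal activity, was at most 0.368 CPM in any library, and Bdnf, Nptx2 and Pcsk1 did not pass the filter. Arc had EYFP 1 and 4 above EYFP 2 and 3, the order of Egr2, and Npas4, at its low counts, had the order of Fos. The genes with the smallest p in this list were Scg2, a secretory granule protein, which was at 7.56 and 4.02 CPM in EYFP 1 and 4 and at most 0.325 CPM elsewhere (edgeR adjusted p = 0.468), and Homer1 (log2 fold change -0.10, edgeR adjusted p = 0.789).

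Companion genes of the pathway were read from the same fit. Their lists were chosen with earlier results of these data known, so a share above that of all genes is no support. Of 126 in the matrix, 121 were tested, 2 were higher and 0 lower in ATG7, where 0.755% of all genes tested passed. DESeq2 called 11 of the 126 higher and 2 lower, where it called 572 of all 32982 genes it tested. Upstream of the factors, 0 of 17 kinases passed (median log2 fold change 0.03), among them ERK, JNK and p38 genes. The smallest p values were those of Map2k6, an activator of p38, at 12.1 to 15.5 CPM in EYFP and 10.5 to 11.5 CPM in ATG7 (log2 fold change -0.28, edgeR adjusted p = 0.336), and Map2k3, which serves the same kinase (0.11, edgeR adjusted p = 0.673). Of the 12 promoter-bound factors in the matrix 0 passed, with a median of 0.04. The ETS partners of serum response factor Elk3 (0.21, edgeR adjusted p = 0.309) and Elk4 (0.21, edgeR adjusted p = 0.432) had the smallest p, and Srf was at 39.0 to 44.8 CPM in EYFP and 39.3 to 46.2 in ATG7.

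Among 12 tested bZIP relatives of AP-1, 0 passed and the median log2 fold change was 0.02. Batf2, an interferon-inducible family member, was at 1.72, 1.87, 1.71 and 1.496 CPM in EYFP and at 3.07, 3.47 and 2.90 CPM in ATG7, without overlap. Its log2 fold change of 0.89 had an edgeR adjusted p of 0.0527, just outside the threshold, and it passed with DESeq2 and with limma-voom. Maff, a small MAF protein, was at 3.00 to 3.97 CPM in EYFP and 3.91 to 5.14 CPM in ATG7 (0.46, edgeR adjusted p = 0.308), and Fosl1 did not pass the filter. Of the EGR and NR4A relatives and NAB corepressors, 0 of 4 tested passed. Nab2, an EGR corepressor that EGR factors induce, was at 21.3 to 22.8 CPM in EYFP and 22.9 to 26.8 CPM in ATG7 (0.17, edgeR adjusted p = 0.438), and Nab1 gave 0.10 (edgeR adjusted p = 0.737). Nr4a2 and Nr4a3 were at 2.72 to 5.51 CPM over the libraries, with Egr4 below the filter.

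Of 13 feedback genes, the dual-specificity phosphatases that switch off MAP kinases and the Sprouty and Spred inhibitors, 0 passed (median log2 fold change -0.06). Dusp1, itself an immediate-early gene, was at 142, 182, 240 and 237 CPM in EYFP and at 267, 202 and 198 CPM in ATG7 (0.15, edgeR adjusted p = 0.815), with the order of EYFP libraries of Fos. Dusp5 and Dusp2 did not overlap between the groups at 1.155 to 1.67 against 1.82 to 3.18 CPM and 0.909 to 1.365 against 1.58 to 2.35 CPM (edgeR adjusted p = 0.179 and 0.180). Of 28 other immediate-early response genes 1 passed. This was Cd83, a surface protein of activated antigen-presenting cells, at 103, 93.5, 87.5 and 105 CPM in EYFP and at 136, 155 and 169 CPM in ATG7. It rose, with a log2 fold change of 0.65 (SE 0.0933, adjusted p = 0.0122 by edgeR). The genes that DESeq2 alone called lower were of this list. Per1, a clock gene with an immediate-early response, was at 73.7, 85.8, 123 and 82.1 CPM in EYFP and at 63.7, 59.8 and 39.9 CPM in ATG7 (log2 fold change -0.74, edgeR adjusted p = 0.217). Ccn1, a matricellular protein, was at 14.6, 18.1, 19.4 and 13.8 CPM in EYFP and at 13.6, 10.4 and 11.2 CPM in ATG7 (-0.49, edgeR adjusted p = 0.179). For neither gene did the groups overlap. In this list 14 of 28 genes, Ier2, Klf6, Nfkbia and Socs3 among them, had EYFP 3 and 4 above EYFP 1 and 2, against 11.5% of all genes tested.

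Of 20 genes reported downstream of AP-1 or EGR, 18 had log2 fold changes above 0 (median 0.41) and 1 passed. Cdkn1a, the cell-cycle inhibitor p21, was at 35.7, 24.7, 27.6 and 25.6 CPM in EYFP and at 47.4, 51.0 and 49.2 CPM in ATG7, and rose as well, with a log2 fold change of 0.80 (SE 0.116, adjusted p = 0.0133 by edgeR). Neither Cd83 nor Cdkn1a passed without ATG7 2, without ATG7 3 or with the replicate number as a block, and Cdkn1a did not pass without EYFP 4. An unadjusted p under 0.05 was found for 13 of the 20 against 12% of all genes. With the list chosen after earlier results of these data, that share does not show a change of AP-1 or EGR targets. The chemokine gene Ccl3 was at 72.0, 32.9, 28.8 and 61.9 CPM in EYFP and at 64.2, 75.1 and 63.5 CPM in ATG7 (0.47, edgeR adjusted p = 0.672). In 6 of the 20 genes (30%), namely Ccl3, Ccl4, Tnf, Il1b, Ptgs2 and Ccl2, EYFP 1 and 4 exceeded EYFP 2 and 3, as in Egr2, Egr3 and Nr4a1. The same order was found in 17.6% of all genes tested.

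Heat-shock genes, which dissociation and other stress induce, were all above 0 in log2 fold change (10 of 10, median 0.43), with 0 passing and 5 of 10 not overlapping, against 11.2% of all genes tested. This list, too, was chosen with earlier results of these data known, so its counts are no separate finding. Hsp90ab1, a cytosolic chaperone, was at 946.5, 1038, 928 and 969 CPM in EYFP and at 1500, 1228.5 and 1296 CPM in ATG7 (0.47, edgeR adjusted p = 0.0509). Hspa8, its constitutive HSP70 counterpart, gave 0.39 (edgeR adjusted p = 0.0842). Both passed with DESeq2 and with limma-voom. The stress-inducible HSP70 genes followed another course. Hspa1a was at 34.9, 54.2, 38.2 and 94.4 CPM in EYFP and at 61.0, 84.3 and 85.3 CPM in ATG7, and Hspa1b at 96.2, 129, 97.2 and 225 CPM in EYFP and at 128, 223 and 219 CPM in ATG7 (edgeR adjusted p = 0.700 and 0.692). Both were highest of the 7 libraries in EYFP 4, as were 8 of the factors. The 2 orders of EYFP libraries described above were found in 0 of the 10 heat-shock genes. Their part in the levels of the factors was not tested.

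The genes most like the mean of the 10 factors were sought among 10249 other genes with a mean of at least 10 CPM, by Pearson's r of log2 CPM over the 7 libraries. They were Socs3 (r = 0.962), Ppp1r15a (0.957), Pank2 (0.955), Ddx20 (0.948) and Gatad2a (0.944). Socs3 was at 81.8, 70.7, 94.3 and 119 CPM in EYFP and at 98.5, 117.5 and 102 CPM in ATG7 (edgeR adjusted p = 0.665). For single factors the closest genes included Ccl3 for Egr3 (r = 0.984), Pdcd11 for Egr2 (0.978) and Diaph1 for Nr4a1 (0.940). With 7 libraries and 10249 genes searched, coefficients of this size describe these libraries only, and the genes share their depth and scaling.

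Leaving out EYFP 4, the highest library for 8 of the factors, raised every log2 fold change above its value with all libraries, to 0.41 for Fos, 0.35 for Junb and 0.61 for Egr2. Then 7 of the 10 factors had an unadjusted p under 0.05, against 8.88% of all genes in that fit, and still 0 passed (edgeR smallest adjusted p among the 10 = 0.355). EYFP 4 was singled out from the factors' own values, so these rises were built in and are no separate finding. Nor are the 7 separate observations, since many of the factors varied together. Without EYFP 3 the Fos value was 0.29, that of Fosb 0.25, that of Egr2 was 0.42, and 0 of 10 had an unadjusted p under 0.05. Without EYFP 1 the log2 fold change of Fosb was -0.12 and that of Fos 0.12, whereas that of Egr2 was 0.58 and that of Egr3 0.48. In that fit 2 of the 10 (Egr2 and Egr3) had an unadjusted p under 0.05 by edgeR, against 15.0% of all genes, and 0 passed. The size of each difference thus depended on which EYFP library was included.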

How the data were processed

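Trizol RNA of the enriched cells went into VAHTS mRNA-seq libraries, per the labels' protocols. The authors deposited raw counts per gene. The submitters' processing notes name fastp 0.20.1, HISAT2 2.0.5, featureCounts and the builds mm10 and GRCm38. Strand setting, treatment of shared reads and annotation release are not given in the sources used here. Columns were matched to libraries by name, with 0 left unmatched. The 37 mitochondrial genes in the matrix had 0 counts. GENCODE M21 gave symbols to 55141 of 55401 genes and left 260 unnamed.

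The 7 libraries entered 1 quasi-likelihood fit in edgeR 4.0.16 (R 4.3.3), with TMM factors, filterByExpr, robust dispersions and no covariate, two-sided. Benjamini-Hochberg adjustment covered the 19199 genes tested, with a threshold of 0.05. Intervals of 95% used the SE, computed as the absolute log2 fold change over the square root of F. Log2 CPM used a prior count of 2. The code was tested on simulated data. Library totals set the precision: 3 counts are 0.0543 to 0.0835 CPM, which covers counting error only. Chi-square per degree of freedom between libraries of a group was 19.2 to 41.3, so each was counted once. Alternatives used DESeq2 1.42.0, limma-voom (limma 3.58.1), other scalings and filters, a replicate block and leaving out each library. All 10 members are named, with the passing genes of each companion list or, where none passed, the 2 with the smallest p, and the genes of highest r. Other genes were chosen after their values were seen. Members and lists were chosen with earlier results of these data known. Promoters of Egr1 and Egr3 were not used here.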

Additional observations from a re-analysis of the deposited data

How the results depend on the processing

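Over 16 alternatives 0 of the 10 factors passed in any, and the smallest adjusted p among their 160 values was 0.267 (Egr2, DESeq2). Direction held throughout for 8 factors; Nr4a1 was below 0 in 8 alternatives and Fosb in 3, with no call in either direction. The count of all genes that differed was 145, and it was 297 with no filter, 572 with DESeq2 (404 higher, 168 lower), 275 at an adjusted p under 0.1, and 28 to 277 when a single library was left out (277 without EYFP 1, 94 without EYFP 2, 30 without EYFP 4, 28 without ATG7 2 and 30 without ATG7 3). Companion genes numbered 2, and 5 with no filter, 13 with DESeq2 (11 higher, 2 lower), 5 with limma-voom, 6 at an adjusted p under 0.1, and 0 to 3 when a single library was left out (1 without EYFP 4, 0 without ATG7 2 or ATG7 3). With the replicate number as a block, the counts were 0 for all genes and 0 for companion genes. Under that block 5 of the 10 factors had an unadjusted p under 0.05, against 6.54% of all genes, and 0 passed. No ATG7 library shares its number with EYFP 4, so EYFP 4 adds nothing to the difference in that fit. In this respect it resembles the fit without EYFP 4. The numbers are shared as names and were not taken as pairs: deviations of same-numbered libraries from their group means correlated at -0.0609, -0.182 and 0.0664 over genes. Over all genes the median log2 fold change stayed between -0.0242 and 0.00307. The lowest count of a factor in a library was 325.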
